A study of Mus musculus with 28 samples.

Results

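Striatal RNA was examined for 8 genes of the endocannabinoid system, 1 receptor and 7 enzymes, in mice given haloperidol and in mice given placebo. The genes are Cnr1, Dagla, Daglb, Napepld, Mgll, Abhd6, Abhd12 and Faah. They were found by their gene symbol, with no measured value used, and are 8 of 23309 symbols and 11 of 30563 RefSeq transcripts in the files. All 8 genes and 10 of the 11 transcripts had a mean of at least 1 FPKM (fragments per kilobase of transcript, relative to the mapped fragments of the library) and were tested.

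The study asked how chronic haloperidol, an antipsychotic that blocks dopamine receptors, affects gene expression in the mouse. The animals were C57BL/6J mice without a named transgene or mutation, bred in-house from Jackson Laboratory stock. The haloperidol group (called Drug in some labels) had 16 mice and the placebo group had 12, with 1 striatum library per mouse. The labels name 2 batches, of 8 mice per treatment in batch 1, and of 8 haloperidol against 4 placebo mice in batch 2. The sources used here give no dose, duration, age or sex. A library is named below by its group and mouse number.

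Endocannabinoids are lipid messengers that are made on demand in the postsynaptic neuron and act backwards on the presynaptic terminal. The CB1 receptor, encoded by Cnr1, sits on terminals and couples to inhibitory G proteins, which lowers transmitter release. Of its main ligands, 2-arachidonoylglycerol is made from diacylglycerol by the lipases of Dagla and Daglb, and anandamide is released from its phospholipid precursor by the enzyme of Napepld, among others. Monoacylglycerol lipase, from Mgll, breaks down 2-arachidonoylglycerol, with smaller contributions from the hydrolases of Abhd6 and Abhd12. Fatty acid amide hydrolase, from Faah, breaks down anandamide. In the striatum, the spiny projection neurons and their cortical inputs carry CB1 receptors, and the system takes part in synaptic depression and movement control.

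Mgll is the member with several RefSeq transcripts, and its 2 points of difference are printed because the transcript results below turn on them. NM_011844 and NM_001166249 begin at the same start and differ in exon 7, where NM_001166249 lacks the first 135 bases, a whole number of codons (45) inside the coding sequence. The stretch lies at chr6:88773185-88773319 on the plus strand of mm9 (chr6:88823191-88823325 in GRCm38). Both forms are shown 5′ to 3′ with 20 bases on each side, from the GENCODE M21 transcripts of GRCm38, and capitals mark the bases that NM_001166249 lacks.
NM_011844: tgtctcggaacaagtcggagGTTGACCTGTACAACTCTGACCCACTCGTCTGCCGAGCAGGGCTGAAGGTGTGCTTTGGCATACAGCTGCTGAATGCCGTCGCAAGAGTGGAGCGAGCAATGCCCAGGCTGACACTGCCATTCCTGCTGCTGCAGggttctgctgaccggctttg
NM_001166249: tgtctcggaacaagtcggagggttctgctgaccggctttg

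NM_001166251 and NM_001166250 use a second first exon, chr6:88674698-88675172 in mm9, downstream of the first exon of the other pair at chr6:88674406-88674565. NM_001166251 keeps the whole of exon 7 and joins the same last exon as NM_011844. NM_001166250 is a short form that shares exons 2 and 3 and ends in an exon of its own, chr6:88716226-88716702 in mm9. The 100 bases before each start are given from RefSeq (GRCm38.p6, plus strand), with every CG dinucleotide in capitals. The first window is chr6:88724312-88724411 and the second is chr6:88724604-88724703.
Start of NM_011844 and NM_001166249: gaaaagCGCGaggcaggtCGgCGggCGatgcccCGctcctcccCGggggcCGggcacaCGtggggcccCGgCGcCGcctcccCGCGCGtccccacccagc
Start of NM_001166251 and NM_001166250: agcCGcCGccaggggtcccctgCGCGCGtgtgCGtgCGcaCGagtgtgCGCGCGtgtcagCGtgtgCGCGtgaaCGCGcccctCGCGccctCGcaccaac
The windows hold 15 and 19 CG dinucleotides and are 82% and 76% G or C. RefSeq promoter entries, of 300 bases from 250 before to 50 after a start, were found for 6 of the 8 genes and gave 10 windows. Cnr1 had windows of 76.3%, 69% and 46.3% G or C, Mgll 70% and 72.3%, Napepld 70.3%, Abhd6 60.7% and 62.3%, Faah 57.7% and Daglb 51%, against a median of 52.7% over 32851 windows. The letters TATAAA, searched on both strands, occurred in 0 of the 10 windows and in 13.6% of all windows.

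Before any comparison, the depth behind the values is stated from the files. Read counts are not used here and the absolute depth is unknown. A relative depth was computed for each library and was uneven between the groups of batch 2. There it averaged 1.196 in haloperidol (n = 8) and 0.733 in placebo libraries (n = 4), with ranges that overlap. In batch 1 it averaged 1.027 and 1.146 (n = 8 each). The part of relative depth in the haloperidol differences, including those within batch 2, was not tested. The interval that Cufflinks gives around an FPKM extended, at its median over the libraries, to 7.43% of the FPKM on each side for Cnr1, 9.15% for Dagla, 11.1% for Abhd6, 11.2% for Faah, 12.7% for Daglb and 21.4% for Napepld. For the Mgll transcripts it was 7.08% for NM_011844, 13.9% for NM_001166249, where 1 library reached 2183%, and 15.1% for NM_001166251. The deposited FPKM of Abhd12 lay above the upper end of its own interval in 28 of 28 libraries, so no precision is read from that interval. The reason is unknown, and the level and rank of Abhd12 below carry the same limit. Among all transcripts of at least 1 FPKM, 4.07% to 11.8% per library lay outside their own interval. The other members lay inside theirs in every library. No exon of another RefSeq gene in the files lies inside the mm9 span of any member. The striatal neuron list was present as labelled, with 9 of 9 markers at 1 FPKM or more and Ppp1r1b between 650 and 1423 in the 28 libraries. Markers of neighbouring tissue were present too. The summed level of 7 of 7 cortical excitatory neuron markers ran from 211 to 492 in placebo and from 207 to 595 in haloperidol libraries, and the sum of 6 choroid plexus markers from 21.4 to 7811 and from 108 to 9332.

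Levels below are scaled FPKM, which means that each library was brought to a common scale by the median of ratios. They are per length, but the levels of long and short transcripts moved differently with the FPKM sum of the library, so the order of genes of unlike length is that of these libraries. Abhd12 was the highest at 190 ± 28.9 (SD, n = 28), followed by Mgll at 60.4 ± 8.54, Cnr1 at 26.8 ± 11.6, Abhd6 at 24.0 ± 3.01, Dagla at 14.5 ± 3.03, Faah at 12.98 ± 2.68, Daglb at 10.1 ± 1.01 and Napepld at 2.63 ± 0.511. Among the means of the 12760 tested genes Abhd12 stood at the 96.7th percentile, Mgll at the 89.1st, Cnr1 at the 76.8th and Napepld at the 17th. Abhd12 exceeded Mgll, and Daglb exceeded Napepld, in 28 of 28 libraries with ranges that did not overlap. Mgll exceeded Cnr1 in 28 of 28 libraries, although the ratio ran from 1.02 to 7.75. Abhd6 exceeded Dagla in 27 of 28, Faah exceeded Daglb in 24, Dagla exceeded Faah in 19 and Cnr1 exceeded Abhd6 in 17, so the neighbours Cnr1 and Abhd6, and Dagla and Faah, did not keep 1 order from mouse to mouse. Within pathways, Dagla was a median of 1.53 times Daglb (0.844 to 2.31), Mgll 3.98 times Dagla (2.62 to 7.72) and Faah 4.72 times Napepld (3.10 to 8.47).

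**Figure D1:**
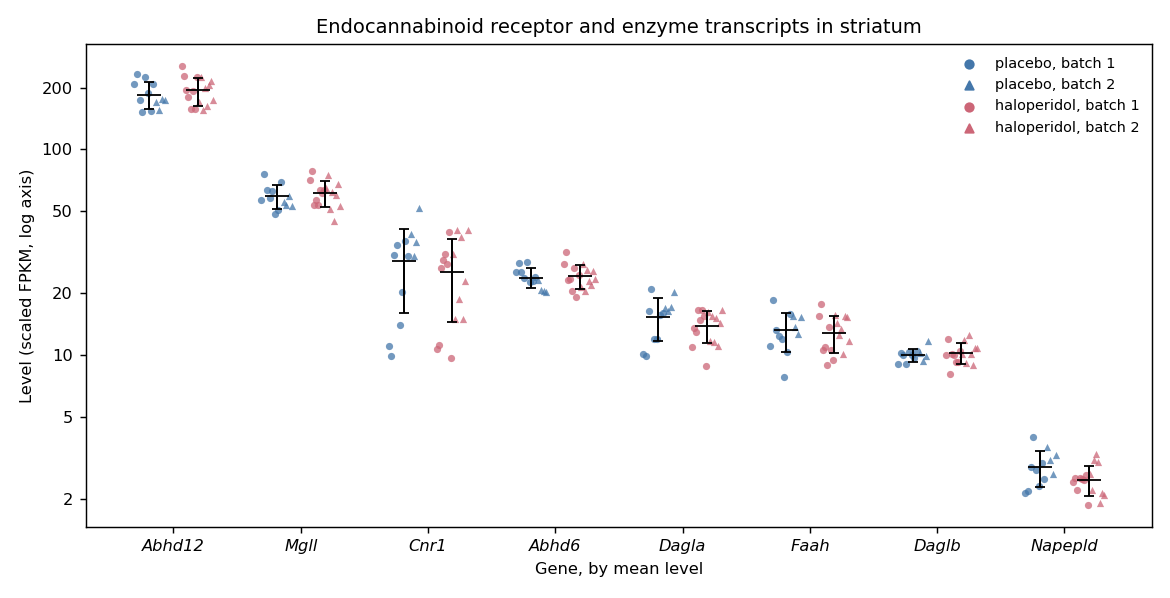
Level of each of the 8 genes in every library, in scaled FPKM on a log axis, ordered by mean level. Points are libraries (circles batch 1, triangles batch 2), bars are the mean and SD of 12 placebo and 16 haloperidol libraries; Cnr1 spreads over 9.65 to 52.1, and the haloperidol and placebo ranges overlap for every gene.

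Haloperidol against placebo was tested with limma over 12760 genes, in a model of treatment and batch for log2(scaled FPKM + 0.5) with Benjamini-Hochberg adjustment. Of the 8 genes 0 passed an adjusted p of 0.05, where 0.00784% of all tested genes did (1 of 12760). At an unadjusted p under 0.05 there was 1 of 8, Napepld, where 6.29% of all genes had such a p (803 of 12760). The 8 log2 differences ran from -0.24 to 0.083 with a median of -0.024, beside 0.0041 over all tested genes. In bulk tissue, fewer cells of a type and less RNA per cell cannot be told apart. Of the 10 member transcripts 0 passed, where 0.00653% of 15324 transcripts did, and 1 had an unadjusted p under 0.05, where 6.19% of all transcripts had one. It is the transcript of Napepld.

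The receptor gene Cnr1 (NM_007726, 2 exons, chr4:34011607-34035806 in mm9, plus strand) had the largest fitted difference of the 8 genes and the widest error. Its level was 9.65 at the lowest, 27.2 at the median and 40.6 at the highest in haloperidol, and 9.85, 30.6 and 52.1 in placebo. The ranges overlap, and 9 of 16 haloperidol libraries lay below the placebo mean. Means were 25.4 ± 11.04 (SD, n = 16) and 28.6 ± 12.6 (SD, n = 12), a log2 difference of -0.24 (SE 0.25, 95% interval -0.76 to 0.27, limma adjusted p = 0.603). In batch 1 the means were 23.2 ± 11.2 and 23.3 ± 10.8 (n = 8 each), a log2 difference of -0.021. In batch 2 they were 27.7 ± 11.1 (n = 8) and 39.2 ± 9.25 (n = 4), where the placebo libraries measured 30.4, 35.7, 38.6 and 52.1 and 4 of 8 haloperidol libraries lay below all of them, a log2 difference of -0.58 (limma adjusted p = 0.282). The interaction of treatment and batch was -0.55 for Cnr1 (SE 0.51, limma adjusted p = 0.863). Of the 8 genes 0 passed in that interaction, where 0.0% of all genes did, and 0 had an unadjusted p under 0.05, where 1.61% had.

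Of the diacylglycerol lipase genes, Dagla (NM_198114, 20 exons, chr19:10319755-10379367, minus strand) encodes the main synthetic enzyme of the adult brain. It measured 8.81, 14.5 and 16.6 at the lowest, median and highest in haloperidol and 9.89, 16.2 and 20.9 in placebo. Group means were 13.9 ± 2.44 (SD, n = 16) and 15.3 ± 3.62 (SD, n = 12), a log2 difference of -0.15 (SE 0.11, limma adjusted p = 0.565). The log2 difference was -0.026 in batch 1 and -0.34 in batch 2. In batch 2, 8 of 8 haloperidol libraries lay below the placebo mean and 7 of 8 below the lowest placebo library. In a fit of batch 2 alone Dagla had a limma unadjusted p of 0.0173 and an adjusted p of 0.282. That fit gave an unadjusted p under 0.05 to 2150 of 12760 genes and to 1 of the 8 members. The interaction for Dagla was -0.31 (SE 0.22, limma adjusted p = 0.863). Daglb (NM_144915, 15 exons, chr5:144225361-144265310, plus strand), the second lipase of the pair, measured 10.2 ± 1.201 (SD, n = 16) in haloperidol against 9.99 ± 0.708 (SD, n = 12) in placebo, a log2 difference of 0.013 (SE 0.055, 95% interval -0.10 to 0.13). Its spread over the 28 libraries, 8.06 to 12.6, was the smallest of the 8 genes in proportion, with a coefficient of variation of 9.97% against 43.3% for Cnr1.

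Napepld (NM_178728, 5 exons, chr5:21168721-21207163, minus strand), the phospholipase that releases anandamide and related amides, was the lowest-expressed member. It measured 1.87, 2.49 and 3.30 at the lowest, median and highest in haloperidol and 2.14, 2.80 and 4.01 in placebo. Haloperidol libraries lay below the placebo mean in 13 of 16 cases, in 8 of 8 within batch 1 and in 7 of 8 within batch 2. Means were 2.47 ± 0.407 (SD, n = 16) and 2.86 ± 0.566 (SD, n = 12), and the log2 difference was -0.19 (SE 0.084, 95% interval -0.36 to -0.020, limma unadjusted p = 0.0303, adjusted p = 0.565). The difference was -0.14 in batch 1 and -0.27 in batch 2, and -0.15 without placebo 8, the library with the value of 4.01. Napepld thus failed the correction over all genes. Adding 0.5 before the log makes a difference in so low a gene look smaller than it is.

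Of the genes that break down 2-arachidonoylglycerol, Mgll (chr6:88674406-88778354, plus strand) measured 44.8, 61.8 and 78.9 at the lowest, median and highest in haloperidol and 48.5, 57.5 and 76.4 in placebo. The means were 61.3 ± 9.04 (SD, n = 16) and 59.1 ± 8.02 (SD, n = 12), a log2 difference of 0.065 (SE 0.078, 95% interval -0.094 to 0.22). Abhd6 (NM_025341, 9 exons, chr14:8835416-8889069, plus strand), a membrane hydrolase of the postsynaptic side, measured 24.2 ± 3.30 against 23.8 ± 2.70, a log2 difference of 0.039 (SE 0.067). Abhd12 (NM_024465, 13 exons, chr2:150658251-150730467, minus strand), a hydrolase also known for lysophosphatidylserine breakdown, measured 194 ± 30.1 against 185 ± 27.7, a log2 difference of 0.083 (SE 0.084). The adjusted p of these 3 genes was 0.636, 0.733 and 0.597 in limma, and their haloperidol and placebo ranges overlap. Within batches 1 and 2 the log2 difference was 0.048 and 0.091 for Mgll, -0.038 and 0.15 for Abhd6, and 0.040 and 0.15 for Abhd12. Faah (NM_010173, 15 exons, chr4:115669261-115690507, minus strand) measured 8.95, 12.9 and 17.8 at the lowest, median and highest in haloperidol and 7.78, 12.9 and 18.4 in placebo, a log2 difference of -0.061 (SE 0.11, limma adjusted p = 0.745).

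**Figure D2:**
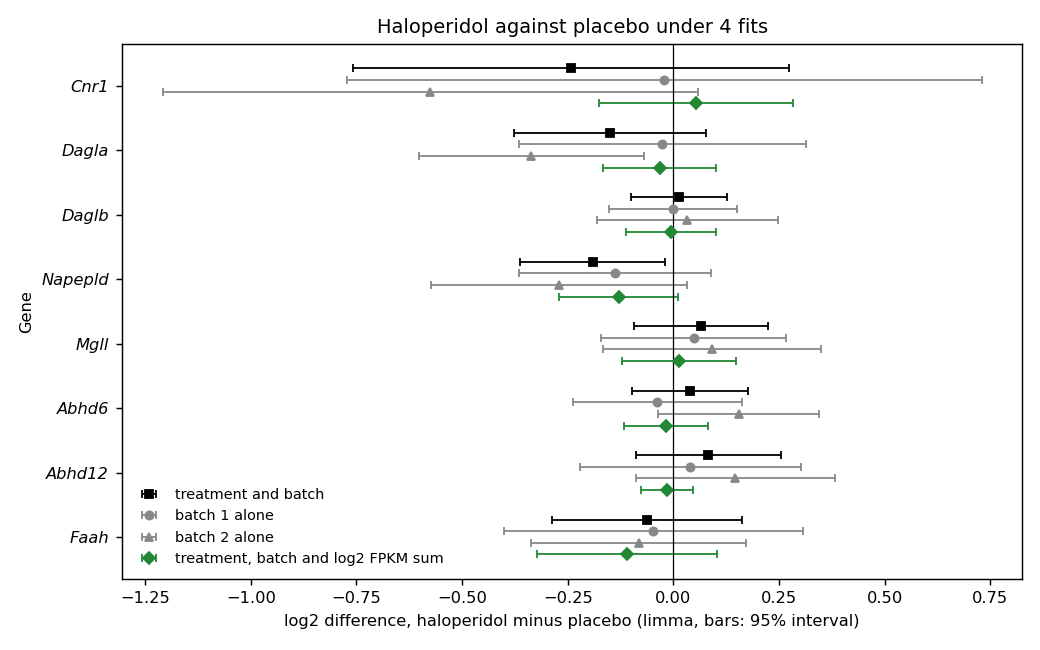
Log2 difference of each gene, haloperidol minus placebo, with its 95% interval, in 4 limma fits: all libraries with batch (squares), batch 1 alone (circles), batch 2 alone (triangles) and all libraries with batch and log2 FPKM sum (diamonds). Cnr1 moves from -0.24 with treatment and batch to 0.053 with the FPKM sum added, and Napepld from -0.19 to -0.13.

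The sum of all FPKM of a library moved with several members, and its values are given beside them. It ran from 380952 to 575171, a 1.51-fold range, and it averaged 486223 in haloperidol against 473907 in placebo libraries of batch 1, and 457641 against 406928 in batch 2. With treatment and batch in the model, 6 of 8 members had a slope on log2 FPKM sum past an adjusted p of 0.05 in limma, where 82.0% of all tested genes did (40.9% higher, 41.1% lower), so the share of members is near that of genes at large. Cnr1 fell by 3.40 on the log2 scale per doubling of the sum (SE 0.31), Dagla by 1.34 (SE 0.18) and Napepld by 0.70 (SE 0.19). Abhd12 rose by 1.12 (SE 0.08), Abhd6 by 0.65 (SE 0.14) and Mgll by 0.59 (SE 0.18), on the scale on which the median gene had a slope of 0.022. Daglb (0.22, limma adjusted p = 0.161) and Faah (0.56, limma adjusted p = 0.0765) did not pass. With FPKM rescaled to a common sum the median slope of all genes moved to -1.10, and Mgll, Abhd6 and Abhd12 then had slopes below 0, of -0.62, -0.54 and -0.10, which lie above that median.

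Cnr1 stood near the end of the distribution of slopes, with 275 of 12760 genes lower. Its log2 level had an SD of 0.71, at the 96.5th percentile of all tested genes. In the 10 libraries with an FPKM sum over 500000 (a threshold chosen after the values were seen) Cnr1 ran from 9.65 to 26.6, and in the other 18 from 20.2 to 52.1. Dagla ran from 8.81 to 13.6 and from 12.0 to 20.9, and Abhd12 from 196 to 255 and from 153 to 214. Within batches the slope of Cnr1 was -3.50 in batch 1 and -3.04 in batch 2, that of Dagla -1.40 and -1.08, and that of Abhd12 1.15 and 1.05. Across genes the slope fell with the length of the most abundant transcript (Pearson's r = -0.603 and Spearman's rho = -0.663 over 12760 genes, which are not independent replicates). Its median was 1.43 for lengths under 2000 bases and -1.36 for 5000 bases or more. Cnr1 and Dagla have the longest main transcripts of the 8 genes, at 5807 and 5634 bases, and Abhd12 and Abhd6 the shortest, at 1967 and 2018. The slope of Dagla, -1.34, lay near the median of its length class, and that of Cnr1, -3.40, well below it. Daglb, Napepld, Mgll and Faah lie between, at 3242, 3673, 3676 and 3816 bases, where the median slope was -0.43. Napepld had a slope below 0 (-0.70), but Daglb, Mgll and Faah had slopes above 0 (0.22, 0.59 and 0.56). The part of length in the slopes of the members was not tested.

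With log2 FPKM sum as a further term, the haloperidol difference was 0.053 for Cnr1 (SE 0.11), -0.033 for Dagla (SE 0.066), -0.13 for Napepld (SE 0.069), 0.014 for Mgll (SE 0.066) and -0.015 for Abhd12 (SE 0.030). The standard error of Cnr1 was 0.25 without that term. RNA integrity number, from the labels, moved in the opposite direction to the FPKM sum: Cnr1 rose by 0.95 on the log2 scale per unit (SE 0.23) and Dagla by 0.37 (SE 0.11), while Abhd12 fell by 0.34 (SE 0.07) and Abhd6 by 0.20 (SE 0.07). In that limma fit 4 of 8 members passed, where 70.0% of all genes did (34.8% higher, 35.2% lower). The part of RNA integrity or of the FPKM sum in the haloperidol differences was not tested beyond these fits.

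**Figure D3:**
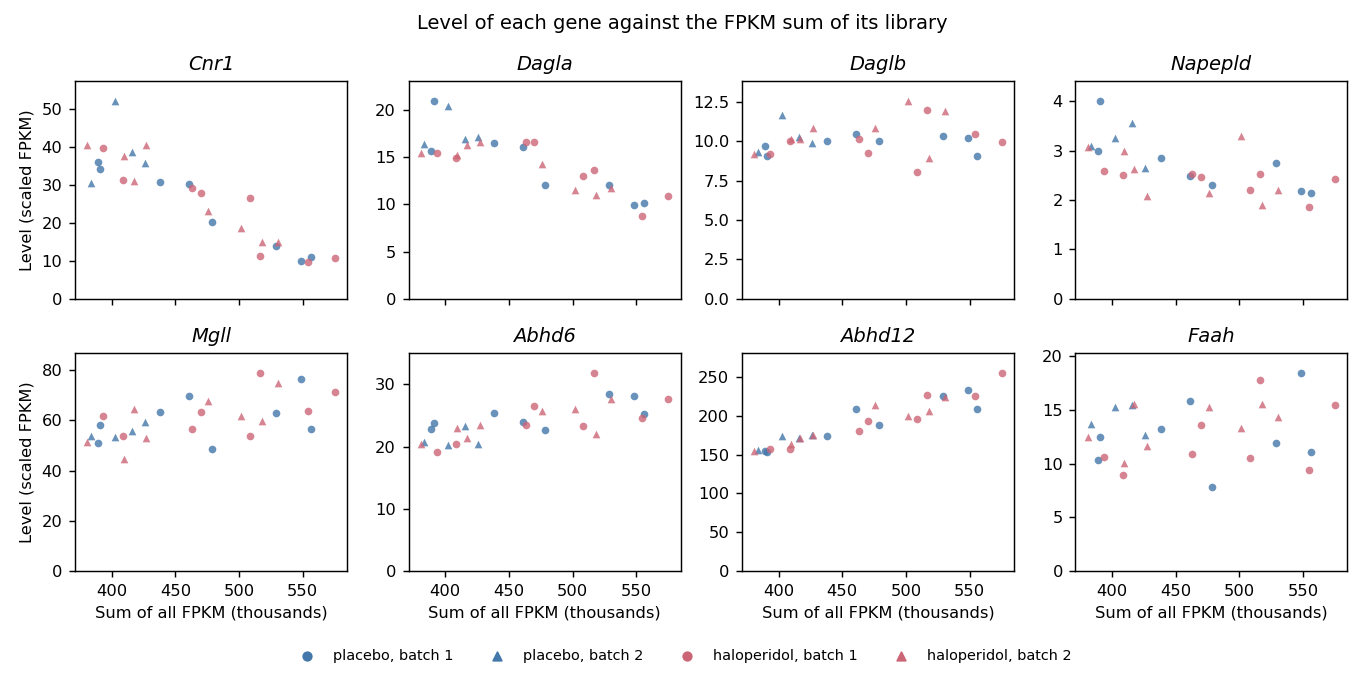
Level of each gene (scaled FPKM) against the sum of all FPKM of its library, on an axis divided by 1000; circles are batch 1, triangles batch 2, blue placebo and red haloperidol. Cnr1 and Dagla are low and Abhd12 is high in the 10 libraries over 500000, which come from both groups and both batches.

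Batch 2 was set against batch 1 in the same limma fit as haloperidol. Of the 8 genes 0 passed, where 0.408% of all tested genes did (52 of 12760), and 1 had an unadjusted p under 0.05, where 26.7% of all genes had one. Cnr1 measured 31.5 ± 11.6 (SD, n = 12) in batch 2 and 23.2 ± 10.6 (SD, n = 16) in batch 1, a log2 difference of 0.53 (SE 0.25, limma unadjusted p = 0.0429, adjusted p = 0.182). This was 0.077 with log2 FPKM sum and -0.014 with RNA integrity number as a further term. With array weights, which give less weight to libraries far from the fit, limma called 6599 genes and 3 members between batches, Cnr1 (0.50, adjusted p = 0.0254), Abhd6 (-0.16, adjusted p = 0.0139) and Abhd12 (-0.15, adjusted p = 0.0394).

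The minor Mgll transcripts varied far more between libraries than Mgll as a whole, and the main one somewhat more. NM_011844 made up 62.3% ± 11.8 (SD, n = 28) of the Mgll FPKM, from 34.2% to 75.6%. NM_001166249, without the exon 7 segment printed above, made up 22.7% ± 17.3, from 0.00188% in placebo 8 to 57.9% in haloperidol 3. NM_001166251, from the second start, made up 14.9% ± 7.18, from 2.11% to 26.8%, and NM_001166250 was listed at 0 in 22 of 28 libraries. As levels, NM_001166249 ran from 0.0011 to 41.3 scaled FPKM with a median of 11.2, NM_001166251 from 1.196 to 15.5 and NM_011844 from 22.4 to 52.8, and the coefficients of variation were 84.0%, 44.4% and 18.6%. Mgll as a whole had a 1.76-fold range and a coefficient of variation of 14.1%.

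None of the Mgll shares passed the test between treatments. The share of NM_001166249 was 25.97% ± 16.6 (SD, n = 16) with haloperidol against 18.2% ± 18.1 (SD, n = 12) with placebo, with medians of 22.2% and 12.97% and ranges that overlap. The log2 ratio of this transcript to the other Mgll transcripts differed by 1.21 (SE 0.73, limma adjusted p = 0.798), that of NM_001166251 by -0.26 (SE 0.38) and that of NM_011844 by -0.37 (SE 0.28). Limma called 0 of these 3 shares and 0.0% of 4728 shares in all, with 4.78% of the shares at an unadjusted p under 0.05 and 0 of the 3 among them.

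The same shares followed the FPKM sum. All 3 slopes passed in limma, where 59.3% of the 4728 shares did (27.9% higher, 31.5% lower): the log2 ratio rose by 8.33 per doubling of the sum for NM_001166249 (SE 1.37), and fell by 4.83 for NM_001166251 (SE 0.54) and by 2.61 for NM_011844 (SE 0.60). The 3 shares are parts of the same Mgll total, so these are not 3 independent results. In the 10 libraries with an FPKM sum over 500000 (the threshold chosen after the values were seen), NM_001166251 made up 2.11% to 10.9% of Mgll. In the other 18 it made up 11.9% to 26.8%. These ranges do not overlap, and how many of the 4728 shares separate at that threshold was not counted. NM_001166249 made up 21.1% to 57.9% and 0.00188% to 25.8%. In batch 1 alone all 3 slopes passed, where 2459 of all 4728 shares did. In batch 2 alone only that of NM_001166251 did (-4.30, limma adjusted p = 0.0157), with NM_001166249 at 4.34 (SE 2.67). The calls fell for shares at large too, to 998 of 4728 in batch 2 alone.

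**Figure D4:**
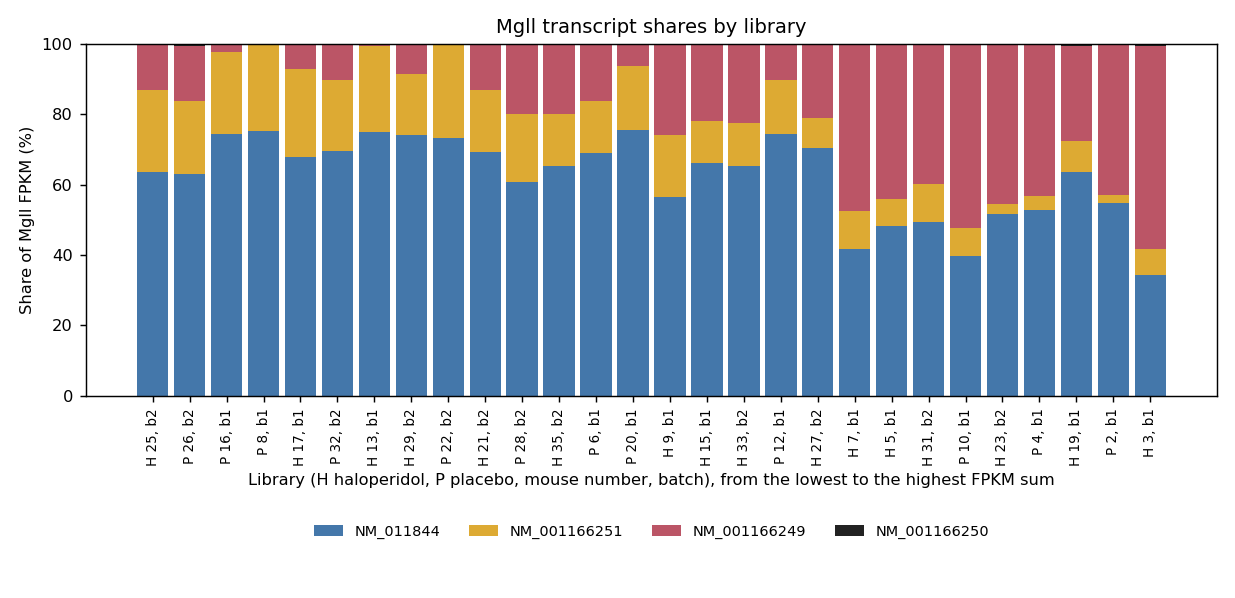
Share of the Mgll FPKM (percent) given to each of 4 RefSeq transcripts in each library, ordered from the lowest to the highest FPKM sum; H is haloperidol, P placebo, followed by the mouse number and the batch. NM_001166249 (red) reaches 57.9% at the right end, and NM_001166251 (yellow) is largest on the left, at up to 26.8%.

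Which members varied together from mouse to mouse was examined after the mean of each treatment-by-batch group was removed. Of 28 pairs, 16 passed by Pearson's r and 17 by Spearman's rho (permutation within the groups, 100000 resamples, adjusted over the 28 pairs). The share that passes among pairs of all genes was not computed. As 82.0% of all tested genes had a slope on log2 FPKM sum past the threshold, the count is not read as particular to these genes. Outside the members, Cnr1 had a higher r with Capza2 (0.972) than with any member. Cnr1 and Dagla, receptor and ligand synthesis, had r = 0.878 and rho = 0.827 (permutation p = 1e-05, the smallest these resamples can give, and 3e-05; adjusted p = 0.00014 and 0.00028). Leaving out the 2 libraries farthest from the median of Cnr1 gave r = 0.845, and the batches gave 0.863 and 0.934. Mgll and Faah, the main hydrolases of the 2 ligands, had r = 0.832 and rho = 0.777 (permutation adjusted p = 0.00014 and 0.00028), with 0.790 without the 2 farthest libraries and 0.912 and 0.722 in the batches. Cnr1 and Abhd12 went in opposite directions, with r = -0.848 and rho = -0.872 (permutation adjusted p = 0.00028 for both).

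After log2 FPKM sum was removed too, 5 of the 28 pairs passed, 4 of which had passed before. Cnr1 and Dagla kept r = 0.5684 (permutation adjusted p = 0.0414), Mgll and Faah 0.812 (0.00028), Mgll and Abhd12 0.660 (0.0104, from 0.685) and Abhd12 and Faah 0.637 (0.0167, from 0.530). Napepld and Abhd6 passed only then, at 0.507 (permutation adjusted p = 0.0354, from -0.114). The relation of Cnr1 with Abhd12 went to 0.0062 (permutation adjusted p = 0.9751).

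Each member was also set against 7 measures of the library, among them the mean log2 level of 4 marker lists, which gave 56 relations. Of these 26 passed by Pearson's r and 21 by Spearman's rho (permutation, adjusted over the 56). The share that passes over all genes was not computed. The 26 include RNA integrity number with Cnr1, Dagla, Abhd6 and Abhd12. They also include log2 FPKM sum with Cnr1, Dagla, Napepld, Mgll, Abhd6 and Abhd12. Log2 relative depth passed with Cnr1 (r = 0.521), Dagla (0.5677) and Abhd12 (-0.478), the last by Pearson's r only (permutation adjusted p = 0.0272, 0.0111 and 0.0432). Faah was high where cortical excitatory neuron markers were high, with r = 0.794 and rho = 0.830 (permutation p = 2e-05 and 1e-05, adjusted p = 0.00022 and 0.00019), 0.777 without the 2 farthest libraries, and 0.799 and 0.804 in the batches. It was low where striatal neuron markers were high (r = -0.762, rho = -0.684, permutation adjusted p = 0.00088 and 0.0023; -0.640 without the 2 farthest, and -0.501 with FPKM rescaled to a common sum). Mgll had the same signs, with r = 0.559 for cortical (rho 0.562, permutation adjusted p = 0.00972) and -0.682 for striatal markers (rho -0.587, permutation adjusted p = 0.00196). In batch 2 alone these were 0.384 and -0.527 and did not pass, and with FPKM rescaled to a common sum they were 0.645 and -0.287, of which the striatal relation did not pass. Cnr1 had r = 0.049 with the cortical list and 0.529 with the striatal list (rho 0.457, permutation adjusted p = 0.0272 and 0.0633). Napepld went with astrocyte markers (r = 0.686, rho = 0.690, permutation adjusted p = 0.00084 and 0.0014). Its r was 0.696 in batch 1 and 0.704 in batch 2 alone, where it did not pass. Cnr1 (r = 0.507), Abhd6 (-0.500) and Abhd12 (-0.701) also passed with that list (permutation adjusted p = 0.0368, 0.0416 and 0.00187). Napepld, Cnr1, Abhd6 and Abhd12 each had the opposite sign with log2 FPKM sum, as given above. The marker relations were not computed with log2 FPKM sum removed, so the part of that sum in them was not tested. Abhd6 passed with striatal markers (r = -0.579, permutation adjusted p = 0.00972). Mgll, Faah and Abhd6 passed with oligodendrocyte markers (r = -0.588, -0.572 and -0.461, permutation adjusted p = 0.00625, 0.00937 and 0.0397).

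With the mean log2 level of the cortical list as a further term, the haloperidol difference of Faah was 0.039, against -0.061 without it. The 7 cortical markers include Slc17a7, at 125 to 390 scaled FPKM, and none of the 7 was at 0 in any library. The mean log2 level of the list was 4.58 ± 0.360 (SD, n = 16) with haloperidol and 4.67 ± 0.455 (SD, n = 12) with placebo. The part of cortical tissue in the levels of Faah and Mgll was not tested.

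**Figure D5:**
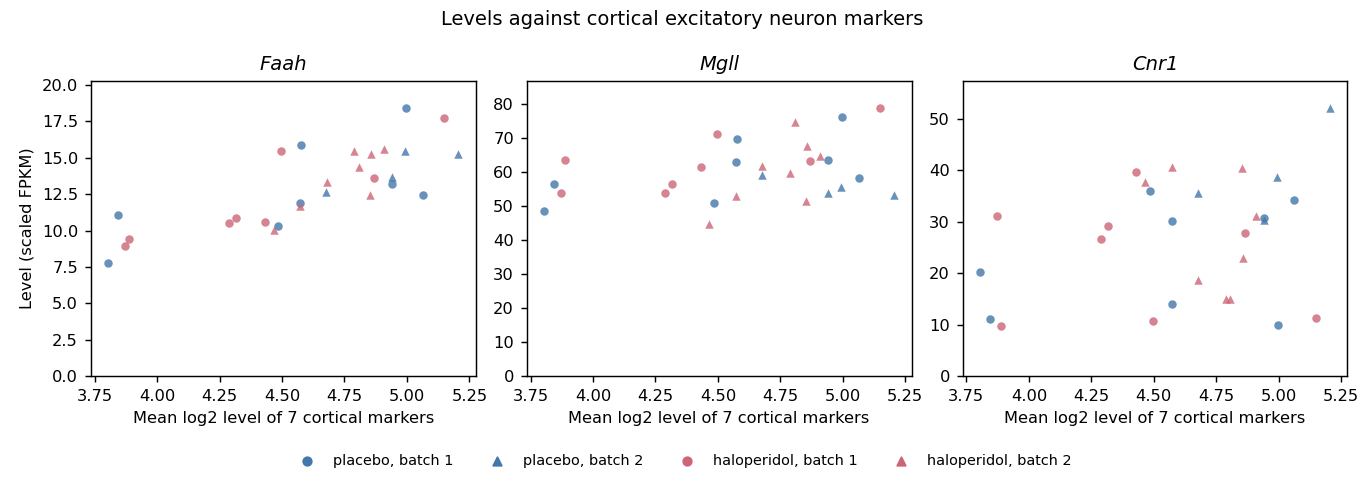
Level of Faah, Mgll and Cnr1 (scaled FPKM) against the mean log2 level of 7 cortical excitatory neuron markers; circles are batch 1, triangles batch 2, blue placebo and red haloperidol. Faah climbs with the markers (r = 0.794 after removal of group means), Mgll less so (0.559), and Cnr1 does not (0.049).

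For each member the 3 tested genes whose log2 level was most like it over the 28 libraries are given as a description, by Pearson's r after removal of the group means. Cnr1 was most like Capza2 (0.972), Ppp3r1 (0.971) and Nptn (0.969), which encode an actin-capping subunit, the regulatory subunit of calcineurin and the adhesion protein neuroplastin. Dagla was most like Dab2ip (0.968), Mras (0.943) and Clstn1 (0.942), and Abhd12 like Tmub1 (0.984), Aimp2 (0.983) and Dctn2 (0.983). These 9 genes share the FPKM sum with their partner, with r to its log2 from -0.914 to -0.843 for the first 6 and from 0.949 to 0.968 for the last 3. For the partners named next, r to log2 FPKM sum ran from 0.417 to 0.480 for those of Faah and 0.665 to 0.742 for Mgll. It ran from 0.725 to 0.845 for Abhd6, -0.851 to -0.784 for Napepld and 0.673 to 0.774 for Daglb. Faah and Daglb themselves had r = 0.356 and 0.289 with log2 FPKM sum and did not pass (permutation adjusted p = 0.153 and 0.211). Faah was most like Stx1a (0.913), a syntaxin of the synaptic release machinery, Neurod2 (0.899), which is on the cortical list, and Chrd (0.890). Mgll was most like Emx1 (0.893), a transcription factor of the dorsal forebrain, Dgkz (0.881), a diacylglycerol kinase, and Cxcl14 (0.876). Abhd6 was most like Rasl10a (0.878), Rtn4rl1 (0.871) and Sept9 (0.850), and Napepld like Ubash3b (0.819), Tnfaip8l3 (0.811) and Ppp6c (0.808). Daglb had no close partner, with Actr1a (0.650) first, followed by 2410016O06Rik (0.6253) and 6430562O15Rik (0.617).

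Other genes of the pathway were taken from 5 lists, and 0 of the 28 tested genes passed in the haloperidol comparison, beside the 0.00784% of all genes given above. Of the inhibitory G protein subunits that CB1 couples to, 0 of 4 passed in either direction, with a median log2 difference of -0.090. Gnai1 measured 39.8 ± 5.11 (SD, n = 16) against 44.9 ± 8.76 (SD, n = 12), a log2 difference of -0.19, and Gnai2 108 ± 18.4 against 98.4 ± 17.97, a difference of 0.18 (limma adjusted p = 0.565 for both, unadjusted p = 0.0362 and 0.0476). These were the only 2 of the 28 genes at an unadjusted p under 0.05, a share near the 6.29% of all genes, and with log2 FPKM sum as a further term their differences were -0.10 and 0.082. Gnao1, the most abundant subunit, measured 194 ± 12.8 against 194 ± 16.6.

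Of the receptors, Gq proteins and phospholipases that supply diacylglycerol, 9 of 10 were tested and 0 passed, with 6 differences below 0 and a median of -0.22. That median was -0.064 with log2 FPKM sum in the model, and 8 of the 9 genes had a slope on the FPKM sum past the threshold (82.0% of all genes). Gna11, the most abundant of them, measured 39.7 ± 3.34 against 39.0 ± 3.59. Of the other enzymes of N-acylethanolamine and 2-arachidonoylglycerol metabolism 8 of 14 were tested, with 4 differences above and 4 below 0 and a median of 0.0056. Gde1, a phosphodiesterase of an alternative anandamide route, was the most abundant at 184 ± 29.6 against 178 ± 22.5.

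The 4 fatty acid binding proteins and lipid carriers had a median of 0.17, and 0.027 with log2 FPKM sum in the model. Fabp3 measured 155 ± 49.4 against 140 ± 39.0. Of the other cannabinoid-responsive receptors and CB1 partners only 3 of 8 reached 1 FPKM, and their median was -0.17, or 0.0020 with log2 FPKM sum in the model. Gprasp1, a sorting protein for G protein-coupled receptors, was the most abundant at 70.9 ± 16.1 against 78.1 ± 18.5. Cnr2, the gene of the second cannabinoid receptor and named here after its values were seen, lay at 0.0390 ± 0.0288 and 0.0367 ± 0.0403 scaled FPKM, far under the minimum for a test.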

How the data were processed

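The deposited values are FPKM per RefSeq transcript, with a coverage value and an interval, as the authors' Cufflinks output gives them per the file headers. TopHat2 2.0.6, Cufflinks and the mm9 build are named in the submitters' processing notes. The sources used here do not give the version of Cufflinks or whether it used strand. FPKM are not counts, so no count model was used.

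Gene FPKM is the sum over transcripts, scaled between libraries by the median of ratios. Features whose mean reached 1 FPKM were tested with limma 3.58.1 (R 4.3.3, trend) on log2(value + 0.5), 2-sided, with treatment and batch as terms. Correlations used Python 3.11.15 and SciPy 1.17.1. The gene test was checked on simulated data. Slopes on the FPKM sum and on RNA integrity number were added after the data were seen.

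Members, lists and tests were chosen with earlier results of these data known. The genes named are the 8 members, the 3 genes most like each, and, of 5 pathway lists, the most abundant gene and those at an unadjusted p under 0.05. Cnr2 and the markers Ppp1r1b and Slc17a7 fall outside this rule and were chosen after their values were seen. No library was left out, and 0 pairs of libraries held identical values. Alternatives covered pseudocount, filter, scaling, weights, further terms, batches and single libraries.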

Additional observations from a re-analysis of the deposited data

Results flagged for a closer look

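Of 44 checks for a single library far from the others of its group, 2 met the rule, and chance alone would give about 1 in 20. Napepld in placebo 8 of batch 1 measured 4.01 scaled FPKM, and the other 7 placebo libraries of that batch ran from 2.14 to 2.999. Without that library the haloperidol difference of Napepld was -0.15 on the log2 scale, against -0.19 with it, and it did not pass either way. The Mgll transcript NM_001166251 in placebo 22 of batch 2 measured 14.9 scaled FPKM, and the other 3 placebo libraries of that batch ran from 10.8 to 11.5.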

How the results depend on the processing

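No paired analysis was made, because the labels used here name no pairs of haloperidol and placebo mice. Over 43 alternatives 0 of the 8 genes passed in the haloperidol comparison, and the lowest limma adjusted p was 0.221, for Napepld. Dagla and Napepld were below 0 in all 43, and Cnr1 and Faah in 42. Mgll was above 0 in 41, Abhd6 and Abhd12 in 40 and Daglb in 35. Of the 43 alternatives, 28 leave out 1 library each and so share most of their data. The number of genes called among 12760 was 0 with a common sum, batch 1 alone, batch 2 alone or no batch term, 2 with cortical markers, 4 without the 6 libraries of RNA integrity number under 7.5, 5 with that number as a term, and 7 with array weights or with log2 FPKM sum. Leaving out 1 library gave 0 to 4, with 0 without placebo 22, 2 without haloperidol 5 or 23 and 4 without placebo 12.

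Each of the following haloperidol differences changed sign. With a common sum they were -0.074 for Daglb, -0.025 for Mgll, -0.050 for Abhd6 and -0.0080 for Abhd12; that scaling moves the median of all genes by -0.084. With array weights they were -0.023 for Daglb and -6.0e-05 for Mgll, and in batch 1 alone -0.00086 for Daglb and -0.038 for Abhd6. With log2 FPKM sum they were 0.053 for Cnr1, -0.0064 for Daglb, -0.018 for Abhd6 and -0.015 for Abhd12. Further values were 0.039 for Faah with cortical markers, -0.013 for Abhd12 with quantile normalization, and -0.0077 for Daglb without low RNA integrity. Daglb ran from -0.0096 to 0.036 when 1 library was left out, below 0 without haloperidol 5 or 27 or placebo 26. NM_001166251 went to 0.18 in level and 0.16 in share with log2 FPKM sum.

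For batch, the genes called numbered 32 with FPKM as deposited, 15 with a common sum, 6 with RNA integrity number, 6599 with array weights (3 members), 119 with log2 FPKM sum, 10 with cortical markers or without low RNA integrity, 14 without the 4 libraries whose FPKM sum exceeded 540000, and 17 to 201 when 1 library was left out. Members changed sign with a common sum (Mgll 0.076, Abhd6 0.047, Abhd12 0.058), with RNA integrity number (Cnr1 -0.014, Dagla -0.047, Mgll 0.0073, Abhd12 0.086), with log2 FPKM sum (Dagla -0.016, Abhd12 0.038), with cortical markers (Faah -0.046) and with quantile normalization (Mgll 0.0026, Abhd12 0.051). A common sum moves the median gene by 0.16 between batches. The interaction changed sign with RNA integrity number for Daglb (-0.0021), Mgll (-0.013) and Abhd12 (-0.0026), and with log2 FPKM sum for Mgll (-0.031) and Abhd12 (-0.032).

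Slopes on the FPKM sum under a common sum were -0.94 for Daglb, -0.62 for Mgll, -0.54 for Abhd6, -0.10 for Abhd12 and -0.62 for Faah. Leaving out 1 library gave 6 to 7 members called and 10309 to 10492 genes; the seventh was Faah without haloperidol 19 or placebo 2 or 12, and Daglb without haloperidol 31. Mgll lost its slope call in batch 1 alone (0.46), with FPKM as deposited (0.37) and without low RNA integrity (0.36), and Napepld in batch 2 alone (-0.65). In batch 2 alone 1 Mgll share slope passed, where 998 of all 4728 shares did, with 1 pair of members and 2 relations with library measures. With log2 FPKM sum removed 5 pairs passed, and without the 4 libraries over 540000 14 relations. With a common sum r of Mgll with striatal markers was -0.287 and did not pass. Single r values that changed sign were Cnr1 with Abhd12 (0.346 with a common sum, 0.0062 with log2 FPKM sum removed), Napepld with Abhd6 (0.762 and 0.507) and Abhd12 with the FPKM sum (-0.275 with a common sum). The causes were not tested. The unknown depth and the Cufflinks intervals limit Napepld and the minor Mgll transcripts most.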
